A study of Mus musculus with 6 samples.

Results

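The earliest difference between Fitm2-deleted and control small intestine was read from 2 of the 6 arrays of the series: KO day 2 against L/L day 2. Fitm2 (FIT2) encodes a membrane protein of the endoplasmic reticulum. L/L mice served as controls, a notation that the labels do not spell out and that usually denotes loxP-flanked alleles. KO mice were ROSA26CreERT2 L/L, and both genotypes received tamoxifen. As labelled, only KO mice carried CreERT2, so loss of Fitm2 and presence of the recombinase cannot be told apart in any contrast here. Tamoxifen went into the peritoneum on days 1, 2 and 3, each dose 100 µg for every g of body weight. Mice were killed on day 2, 3 or 5 and RNA came from the entire small intestine, flushed with PBS; whether mice killed on day 2 had already received the day 2 dose is not stated. The KO day 2 array held RNA pooled from 7 mice and the L/L day 2 array RNA pooled from 6, and the other arrays held pools of 6 to 8 mice. The ROSA26 locus is expressed in nearly all cell types and is not specific to the epithelium; which cells had lost Fitm2 was not measured. Of 18193 genes named on the array, 13042 were bright enough to be compared, each through its brightest probe set (a set of oligonucleotides for 1 transcript).

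The intestine absorbs dietary fat as fatty acids and monoglycerides, rebuilds triglyceride at the endoplasmic reticulum, and sends it out in chylomicrons or keeps it for a time in lipid droplets, whose budding depends on FIT2. Among the earliest programmes by which a tissue answers a disturbance are the interferon response, in which type I or III interferons act on a DNA element called ISRE, and the p53 response, in which DNA damage or other stress switches on genes that halt the cell cycle or start cell death. Interferon gamma acts on a shorter element called GAS, with the IRG and GBP GTPases among its classic targets. The crypts hold Paneth cells, which secrete defensins and other antimicrobial proteins, and the villi are covered by enterocytes.

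Epithelial transcripts were bright in both day 2 pools of this whole tissue. All 16 epithelial marker genes were above the intensity threshold (38.9), and their intensities summed to 149226 in L/L and 149519 in KO. Epcam, an adhesion molecule of epithelia, stood at 15195 in L/L and 15255 in KO. Over all genes the 2 arrays of day 2 were the most alike of any pair, with a correlation of log2 intensity of 0.997 and a median absolute log2 difference of 0.0669.

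The targeted gene was lower in KO. The Fitm2 probe set read 193 in the L/L pool and 123 in the KO pool of day 2, a 1.57-fold difference, against 211 to 223 in the later L/L arrays and 120 to 127 in the later KO arrays. The KO day 2 array thus lay below every L/L array and close to the later KO arrays. Its relative Fitm1, known from skeletal muscle, was 176 in L/L and 162 in KO, within the spread of the L/L arrays. The labels do not place the deleted part of Fitm2 relative to the probe set, and these values do not measure how complete the deletion was.

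A pair of transcripts tied to the CreERT2 allele separated the day 2 pools as clearly. Esr1, the estrogen receptor alpha gene, whose ligand-binding domain in its human form is part of CreERT2, was 6.55-fold higher in KO: 56.1 in L/L and 367 in KO, with later L/L arrays at 56.1 and 39.8. The other Esr1 probe set above the threshold differed by -0.26 on the log2 scale, the opposite direction. Gt(ROSA)26Sor, transcribed from the locus that carries the recombinase, was 442 in L/L and 204 in KO, below all 3 L/L arrays. Whether the Esr1 probe set reads the transgene was not tested. Of 12 measured genes known as estrogen-responsive, 0 were 1.5-fold higher or lower on day 2, against 0.537% of all genes. At that share a list of this size would usually hold none. The list's median log2 difference was 0.01. Igfbp3, a carrier of insulin-like growth factors, was highest at 0.48.

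With 1 pooled array for each genotype there is no test of the day 2 difference itself. It was described against the differences among the 3 L/L arrays, which differ in pool and day. With the day they also differ in the tamoxifen received or the time since it. On day 2 a 2-fold difference was reached by 16 genes (0.123% of 13042), of which 12 (0.092%) were higher in KO and 4 (0.0307%) were lower. At 1.5-fold the count was 56 higher (0.429%) and 14 lower (0.107%). Between L/L arrays the 1.5-fold counts were 115 higher and 96 lower from day 2 to day 3 (0.882% and 0.736%), 150 higher and 231 lower from day 2 to day 5 (1.15% and 1.77%), and 72 higher and 185 lower from day 3 to day 5 (0.552% and 1.42%). KO and L/L on day 2, killed on the same day, thus differed in fewer genes than any pair of control pools, killed on different days. The differences that were present lay mostly on the higher side. The contrasts of L/L day 3 or day 5 with L/L day 2 share the L/L day 2 array with the genotype contrast.

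**Figure D1:**
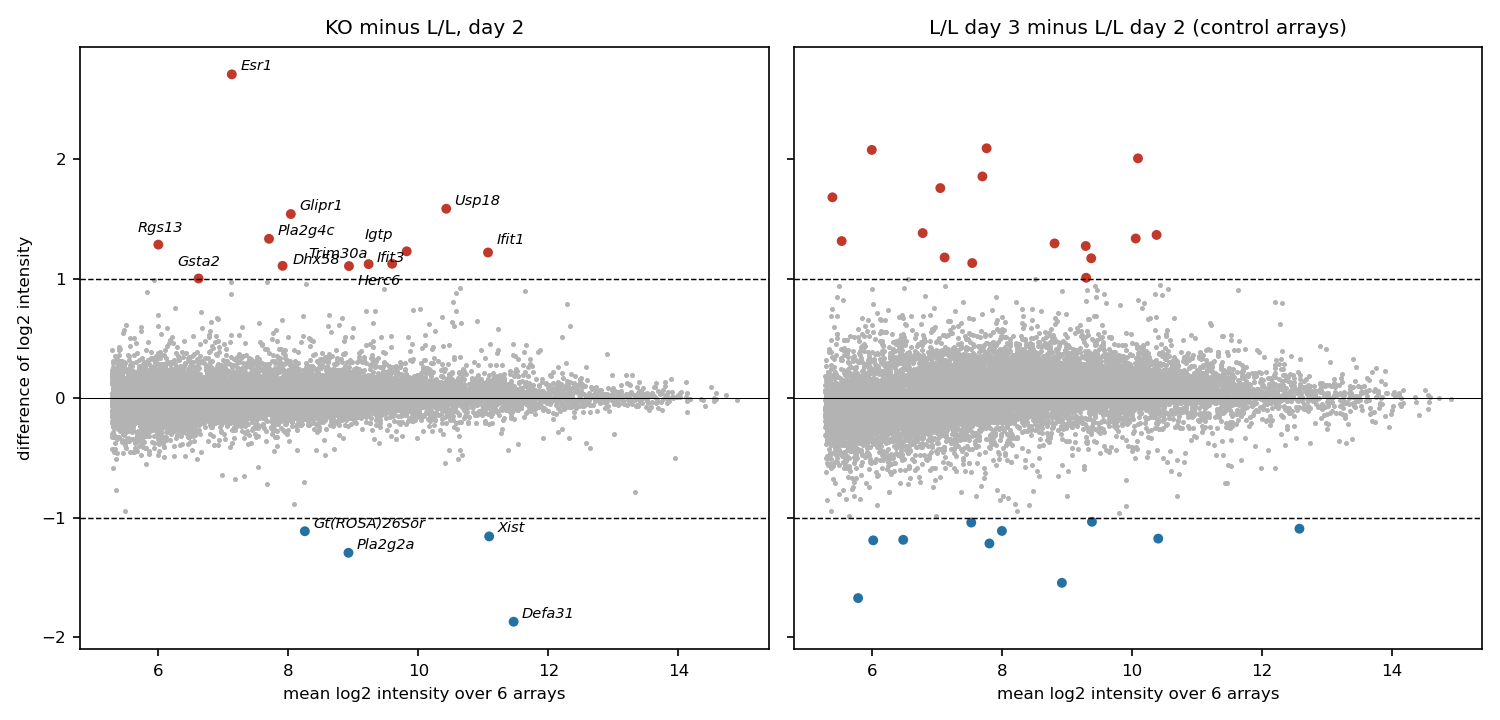
Difference of log2 intensity (vertical axis) against the mean log2 intensity over 6 arrays (horizontal axis) for 13042 genes, each a point; left, KO minus L/L on day 2, right, L/L day 3 minus L/L day 2. Dashed lines mark 2-fold, with coloured points beyond them: 12 genes higher and 4 lower on the left, named, and 16 higher and 10 lower on the right, where the grey cloud is also wider (median absolute log2 difference 0.119 against 0.0669).

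Antiviral genes induced by interferon made up the largest group among the early differences. Of 46 measured genes of the list, 18 were at least 1.5-fold higher in KO on day 2 and 0 were lower by as much. Above 0 lay 45 of them, against 55.5% of all genes. The median log2 difference was 0.48, against 0.01 over all genes, and 18 of 46 (39.1%) compares with 0.429% of all genes past the same fold. Like the other lists, this one was chosen with earlier results of these data known, so the share describes and does not test. Ifi203 was the exception at -0.09. These genes accounted for 18 of the 56 genes that were 1.5-fold higher, and for 6 of the 12 at 2-fold.

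Usp18, a protease that removes ISG15 and damps interferon receptor signalling, was the highest of them at 3.00-fold. It stood at 589 in L/L against 1770 in KO, while L/L stood at 1134 on day 3 and 1081 on day 5. The KO pool was above all 3 L/L pools, and the L/L day 2 pool was the lowest of the 3. Ifit1, which binds foreign RNA by its unmethylated cap, was 1178 in L/L and 2743 in KO (2.33-fold), with 1476 and 1704 in the later L/L pools. Ifit3, its partner, was 365 and 795, and Ifit2 was 150 and 293; neither KO value was reached by any L/L pool, whose highest were 528 and 168.

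The remaining antiviral genes at 2-fold were Trim30a (418 in L/L, 911 in KO), a TRIM family protein, Dhx58 (128 and 276), which encodes the RNA sensor LGP2, and Herc6 (248 and 534), the ligase that attaches ISG15 in the mouse. In these the later L/L pools lay between the 2 values, up to 727 for Trim30a, 231 for Dhx58 and 461 for Herc6. Besides Ifit2, those between 1.5-fold and 2-fold were Oasl2, Oas1a, Oasl1 and Rsad2 (viperin), the helicase gene Ddx60, Rtp4, Samd9l, Ifit1bl1, Bst2 (tetherin), the protein kinase gene Eif2ak2 and Irf7, the transcription factor that amplifies the response. Irf7 went from 1041 to 1582 and Rsad2 from 954 to 1671. Stat2, a subunit of the factor that binds ISRE, was 160 and 220, short of 1.5-fold.

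The size of the antiviral difference depended on which control it was set against. The L/L day 2 array was the lowest of the 3 L/L arrays for 31 of the 46 genes, where this was so for 37.3% of all genes, and the list's median was 0.24 higher on L/L day 3 and 0.19 higher on L/L day 5 than on L/L day 2. Against the mean of the 3 L/L arrays the median difference of KO day 2 was 0.39, and 7 of the 46 genes were 1.5-fold higher, against 0.521% of all genes. The 6 antiviral genes at 2-fold fell short of it against that mean, with Usp18 at 1.97-fold. The KO day 2 array nevertheless exceeded every L/L array in 36 of the 46 genes, against 21.2% of all genes. Among the 18 genes it did so in 16; Oas1a (3152 in KO, 3164 in L/L day 3) and Eif2ak2 (398 in KO, 402 in L/L day 5) were matched by a later control pool. The summed intensity of the list was 40163 for L/L and 59047 for KO, with the highest L/L pool at 51003.

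**Figure D2:**
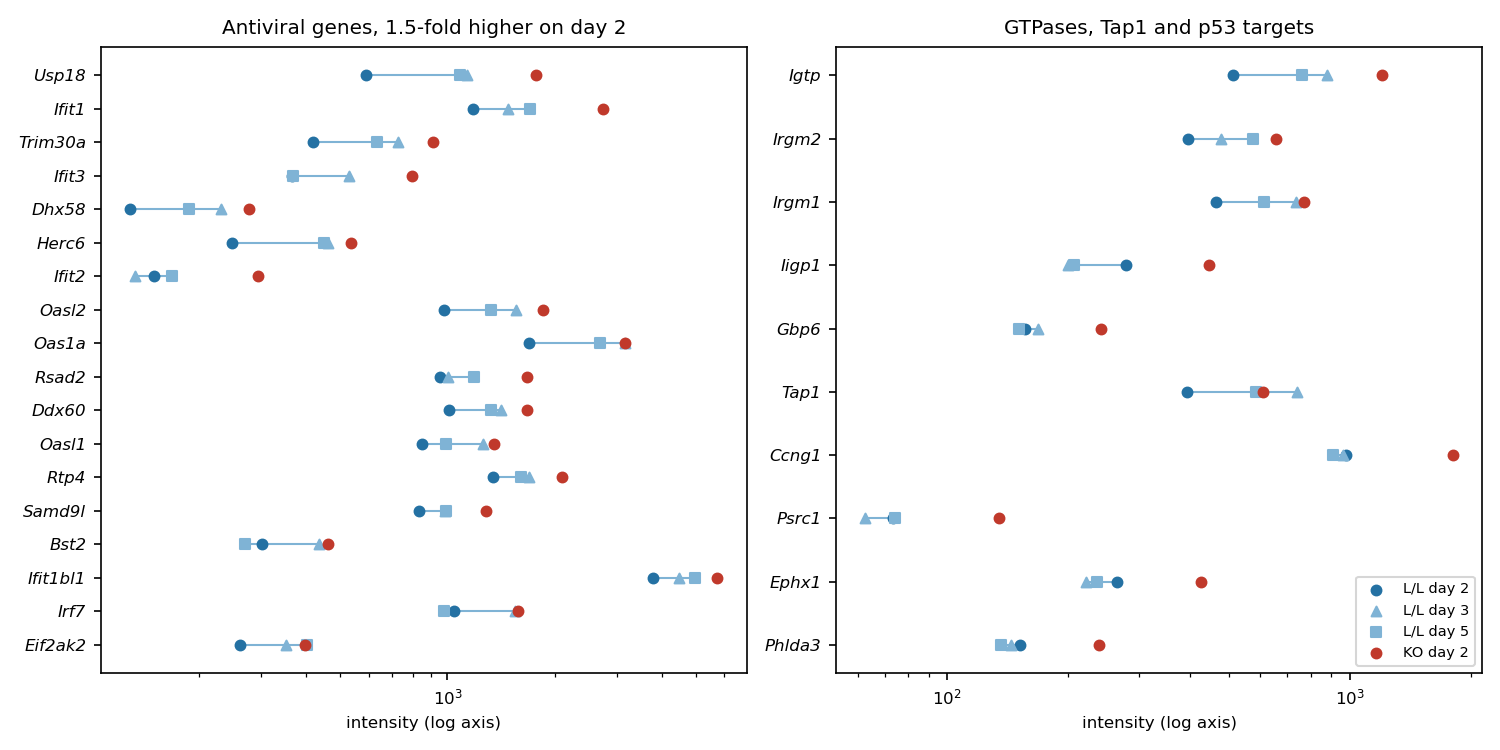
Intensity (horizontal, log axis) of the 18 antiviral genes at least 1.5-fold higher in KO on day 2 (left) and of 5 GTPase genes, Tap1 and 4 p53 targets (right) on the 3 L/L arrays (blue, joined by a line that spans them) and on KO day 2 (red). The red point lies beyond the blue line in 16 of the 18 antiviral genes and in all 4 p53 targets, and the blue lines are short for the p53 targets.

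The promoters of these genes were searched for the ISRE letters (GAAA, any 2 bases, then GAAA again) and the GAS letters (TTC, any 3 bases, then GAA) on both strands, in the 250 bases before the gene's start (RefSeq, GRCm38.p6). A promoter was listed for 43 of the 56 genes that were 1.5-fold higher on day 2. Of these, 15 (34.9%) held the ISRE letters, against 3.14% of the 10474 compared genes with a promoter and 2.98% of all 32851 promoters in the table. Of the 10 listed among the 14 lower genes, 0 held them. The GAS letters were in 8 of the 43 (18.6%), against 7.2% of compared genes. A match describes the letters and is no evidence that a factor bound there. The stretches nearest the start are shown for 8 genes of the interferon lists because they carry the feature that these genes share; the capitals mark the ISRE letters in either orientation and the strand is that of the gene.
Ifit1, chr19:34640765-34640833, plus strand: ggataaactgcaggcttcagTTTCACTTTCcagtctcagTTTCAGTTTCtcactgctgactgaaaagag
Ifit3, chr19:34583387-34583436, plus strand: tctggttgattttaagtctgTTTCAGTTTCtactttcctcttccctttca
Trim30a, chr7:104465200-104465249, minus strand: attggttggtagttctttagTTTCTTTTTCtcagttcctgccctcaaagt
Oas1a, chr5:120907526-120907565, minus strand: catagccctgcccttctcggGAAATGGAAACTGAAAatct
Bst2, chr8:71537567-71537622, minus strand: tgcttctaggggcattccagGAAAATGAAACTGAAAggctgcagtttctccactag
Igtp, chr11:58199502-58199551, plus strand: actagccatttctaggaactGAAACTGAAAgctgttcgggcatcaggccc
Irgm2, chr11:58214893-58214942, plus strand: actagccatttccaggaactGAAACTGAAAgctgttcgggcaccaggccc
Irgm1, chr11:48871421-48871470, minus strand: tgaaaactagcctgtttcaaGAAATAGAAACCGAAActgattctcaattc
In the stretches shown, Ifit1 held the letters at 2 places and Oas1a, Bst2 and Irgm1 as overlapping pairs. Ifit3 held them at 2 places in the 250 bases, of which 1 is shown. The stretches of Igtp and Irgm2 were identical in 48 of 50 bases. In all, 8 of the 15 antiviral genes past 1.5-fold with a listed promoter held the letters and 5 of the 20 not past it did. Herc6, Ifit2 and Irf7 had none in this window. Of the 25 higher genes with a listed promoter in neither interferon list, 4 (16.0%) held them: Ifi213, Tnfrsf14, Clca3a1 and Esr1.

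The IRG and GBP GTPases, which attack the vacuoles of intracellular microbes, were higher with them. Of 14 measured genes of the interferon-gamma list, 5 were 1.5-fold higher (0.429% of all genes) and 0 lower, with a median log2 difference of 0.41. Igtp (Irgm3) was 512 in L/L and 1200 in KO, and 761 to 879 in the later L/L pools. Irgm1 was 465 and 770, Irgm2 396 and 656, Iigp1 279 and 448, and Gbp6 156 and 242. For Gbp6 the 3 L/L pools were close together, at 151 to 168, and the KO pool stood apart. The L/L pools of Iigp1 ran from 199 to 279, all below the KO pool. For Irgm1 the L/L day 3 pool reached 735. Gbp2b was lower, at -0.24 on the log2 scale. Between L/L pools the list's median moved by 0.11 from day 2 to day 3, by 0.01 from day 2 to day 5 and by -0.21 from day 3 to day 5. Against the mean of the 3 L/L arrays its median was 0.34 and 3 genes were 1.5-fold higher.

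Antigen presentation genes were mostly higher on day 2, by small amounts. Of 15 measured genes of class I processing, 14 lay above 0, against 55.5% of all genes. KO exceeded all 3 L/L pools in 2 of the 15, against 21.2% of all genes. The 1 gene that was 1.5-fold higher (0.429% of all genes) was Tap1, a subunit of the peptide transporter. It stood at 395 in L/L and 609 in KO, and L/L day 3 exceeded both at 739. A second bright Tap1 probe set differed by only 0.12. Nlrc5, the class I transactivator, was 64.7 and 96.9. B2m, the light chain shared by class I molecules, was 16046 and 16567. The list's median of 0.10 was smaller than its shift of 0.24 among the controls from day 2 to day 3. Of 9 class II genes 8 lay above 0 and 0 were past 1.5-fold (0.537% of all genes). Their median was 0.11, with H2-DMa highest at 0.22.

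Targets of p53 were higher by less. Of 31 measured genes, 4 were 1.5-fold higher (0.429% of all genes) and 0 lower by as much. Above 0 lay 27, against 55.5% of all genes. Ccng1 (cyclin G1, which acts back on p53 and MDM2) was 980 in L/L and 1800 in KO, with L/L between 910 and 980 on all days. Psrc1, a microtubule protein of the spindle, was 73.3 and 134. Ephx1, microsomal epoxide hydrolase, was 264 and 426. Phlda3, an inhibitor of AKT, was 151 and 239, with L/L between 136 and 151. For each of these genes the KO pool lay above all 3 control pools. A second Psrc1 probe set differed by 0.23, while the other 2 of Ccng1 differed by 0.77 and 0.81.

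Further p53 targets fell short of 1.5-fold, Zmat3 and Aen by the least. Zmat3, an RNA-binding protein, was 147 and 217, and Aen, an apoptosis nuclease, 168 and 233. Cdkn1a (p21), the main brake on the cell cycle among them, was 2687 and 3248, above all 3 L/L pools. Mdm2, which turns p53 over, was 648 and 649, and a dimmer Mdm2 probe set differed by 0.29. Sesn1 was lowest of the list at -0.14. The list's median was 0.18 on day 2, and it moved by 0.04, 0.03 and -0.03 between the L/L pools, among which 0 of the 31 genes were 1.5-fold higher. KO day 2 exceeded all 3 L/L pools in 18 of the 31, against 21.2% of all genes. Against the mean of the 3 L/L arrays, or with probe sets averaged for each gene, the list's median was 0.11. Proliferation genes, 34 measured, had a median of 0.06 with 0 past 1.5-fold, against 0.537% of all genes. Mcm5, a subunit of the replicative helicase, was highest among them at 0.31.

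Outside those groups the higher genes were of several kinds. Glipr1, a secreted or membrane protein known as a p53 target in human and mouse cells, was 159 in L/L and 462 in KO; L/L ran from 148 to 159 over the days, so the 2.91-fold difference was far outside the controls. Egr1, an immediate early transcription factor, was 410 and 770, against 530 at most in L/L. Angptl4, an inhibitor of lipoprotein lipase induced by fasting, was 976 and 1626, and L/L day 3 was lower at 522. Clca3a1, of a family of secreted metalloproteases, was 715 and 1200, with another probe set at 0.40. Ccp110, a centriole protein, was 79.4 and 126, and Adamts1, a matrix protease, 121 and 183.

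For 3 of the 12 genes at 2-fold, by contrast, the KO value lay below at least 1 later L/L pool, and the difference had the opposite sign on days 3 and 5. Pla2g4c, cytosolic phospholipase A2 gamma, was 110 in L/L and 278 in KO, but 400 and 741 in the later L/L pools and 99.2 and 90.9 in the later KO pools. The genotype difference was thus -2.01 and -3.03 on the log2 scale on days 3 and 5, and against the mean of the 3 L/L arrays the day 2 value was -0.20. Rgs13, a regulator of G protein signalling found in tuft cells, was 25.5 in L/L, below the threshold, and 62.2 in KO, with later L/L pools at 108 and 65.2; with L/L raised to the threshold its difference was 0.67. Gsta2, a glutathione transferase, was 60.8 and 122, and L/L day 5 reached 144. In these 3 genes the KO day 2 pool lay within the range of the L/L pools.

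Lower genes on day 2 were few. The lowest was Defa31, an alpha-defensin of Paneth cells, at 10152 in L/L and 2772 in KO; its probe set can bind several transcripts, and the defensin genes are near-identical copies, so the value may stand for more than 1 of them. Over the L/L pools it ran from 10152 on day 2 down to 35.3 on day 5, so the KO day 2 value lay inside that range. Pla2g2a, a secreted phospholipase A2 of Paneth cells that is inactive through mutation in several inbred mouse strains, was 1397 in L/L and 569 in KO, with 478 and 109 in the later L/L pools. Against the mean of the 3 L/L arrays both differences had the other sign, at 1.09 and 0.45.

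The other Paneth cell products did not share that direction. Of 9 measured genes of the list, 2 were 1.5-fold higher (0.429% of all genes), 2 lower (0.107%), and 7 lay above 0, as did 55.5% of all genes. Ang4, an antimicrobial ribonuclease, was 3076 in L/L and 5300 in KO, and 4426 to 4730 in the later L/L pools. Pnliprp2, a lipase, was 1165 and 1800, with all 3 L/L pools between 1132 and 1173. Itln1, a sugar-binding lectin, was 3042 and 3983, Lyz1, the Paneth cell lysozyme, 15831 and 17404, and Mmp7, which activates defensins, 582 and 630. Goblet cell genes (18 measured, median 0.03), enteroendocrine genes (24, median 0.01) and, apart from Rgs13, tuft cell genes (16, median 0.03) had 0 members past 1.5-fold. Over all genes 0.537% were past it in either direction. In bulk tissue a different number of cells and a different amount of RNA per cell cannot be told apart.

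Among mucosal defence genes the Reg3 lectins were lower. Reg3g, a lectin that kills Gram-positive bacteria, was 13432 in L/L and 7771 in KO, below the lowest L/L pool at 11548. Its relatives Reg3b (20724 and 14622) and Reg3a (2252 and 1671) were lower by less than 1.5-fold, each below its 3 L/L pools. Mbl2, a mannose-binding lectin of the complement system, was 363 in L/L and 224 in KO, with later L/L pools at 188 and 153, so that the KO value lay inside the controls. Tlr1, a receptor for bacterial lipopeptides, was 41.3 and 24.2, both near or under the threshold, and with dim values raised to it the difference was -0.08. Of 25 measured genes of this list 0 were 1.5-fold higher and 3 lower (0.107% of all genes), and 10 lay above 0 (55.5% of all genes). The list's median was -0.09, or -0.02 with 3 genes 1.5-fold higher against the mean of the 3 L/L arrays.

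Several absorptive genes were lower in KO on day 2 while the L/L day 2 pool was the highest control. Dio1, the deiodinase that activates thyroid hormone, was 621 in L/L and 335 in KO, and 348 and 267 in the later L/L pools. Slc40a1 (ferroportin), the exporter that passes iron to the blood, was 281 and 171, and 169 and 191 later. Bco1, which cleaves beta-carotene, was 481 and 323, and S100g, the calcium-binding protein calbindin-D9k, 2543 and 1743. For these 4 genes KO day 2 lay within the range of the L/L pools, and against the mean of the 3 L/L arrays Bco1 and S100g had the other sign, at 0.69 and 0.12. Fam13a, a gene linked to fat distribution, was 219 and 137, below all L/L pools, of which the lowest was 150.

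Lists of lipid genes covered lipid absorption, triglyceride, fatty acid and phospholipid synthesis, lipid droplets and fatty acid oxidation. In them Fitm2, the targeted gene, and Angptl4 were the members past 1.5-fold on day 2. Over all genes 0.429% were 1.5-fold higher and 0.107% lower. At those shares lists of this size would hold few such members, so the count does not set them apart. Pnliprp2 and the phospholipases described above are in other lists. Chylomicron assembly and lipid absorption (24 measured) had a median of 0.01, with Clps, colipase, highest at 0.45 and Scarb1, a lipoprotein receptor, lowest at -0.24. Triglyceride synthesis (17) had a median of 0.10, with Lpin1, a phosphatidate phosphatase, at 0.28. The final enzymes Dgat1 and Dgat2 stood at -0.02 and 0.10, and Mttp, which loads lipid onto apolipoprotein B, at -0.01. Among lipid droplet and lipolysis genes (23, median 0.00) G0s2, an inhibitor of the lipase ATGL, was 93.9 and 131, and Hsd17b13, a droplet protein, 1421 and 1097; Plin2, a droplet coat protein, was 2231 and 2226. Fatty acid synthesis and phospholipid synthesis had medians of 0.01 and 0.02.

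Over all genes, 55.5% lay above 0 on day 2, and KO lay above all 3 L/L pools in 21.2%. Sterol synthesis genes had a median of 0.16 (20 measured, 17 above 0, 0 past 1.5-fold against 0.537% of all genes). Cyp51, lanosterol demethylase, was 423 in L/L and 527 in KO, and 624 and 785 in the later L/L pools. The L/L day 2 pool was the lowest control in 16 of the 20 genes, the list was 0.21 and 0.22 higher in the later L/L pools, and against the mean of the L/L arrays its day 2 median was -0.03. Glucocorticoid and fasting genes had a median of 0.24 (21 measured, 19 above 0, 13 above all 3 L/L pools), and of 0.33 with 6 genes 1.5-fold higher against the mean of the L/L arrays, with the L/L pools moving the opposite way, by -0.27 and -0.25 from day 2. Besides Angptl4, Hsd11b1, which regenerates active glucocorticoid, was 113 and 162 and Fkbp5, a chaperone of the glucocorticoid receptor, 1633 and 2225; both KO values lay above all L/L pools. Targets of ATF4 had a median of 0.14 with Vldlr, a lipoprotein receptor, at 0.46, and the unfolded protein response a median of 0.04 with Herpud1 at 0.18. Oxidative phosphorylation had a median of -0.02 and a lowest member, Sdha, at -0.13; 18 of its 26 genes were lower on all 3 days, against 17.4% of all genes.

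**Figure D3:**
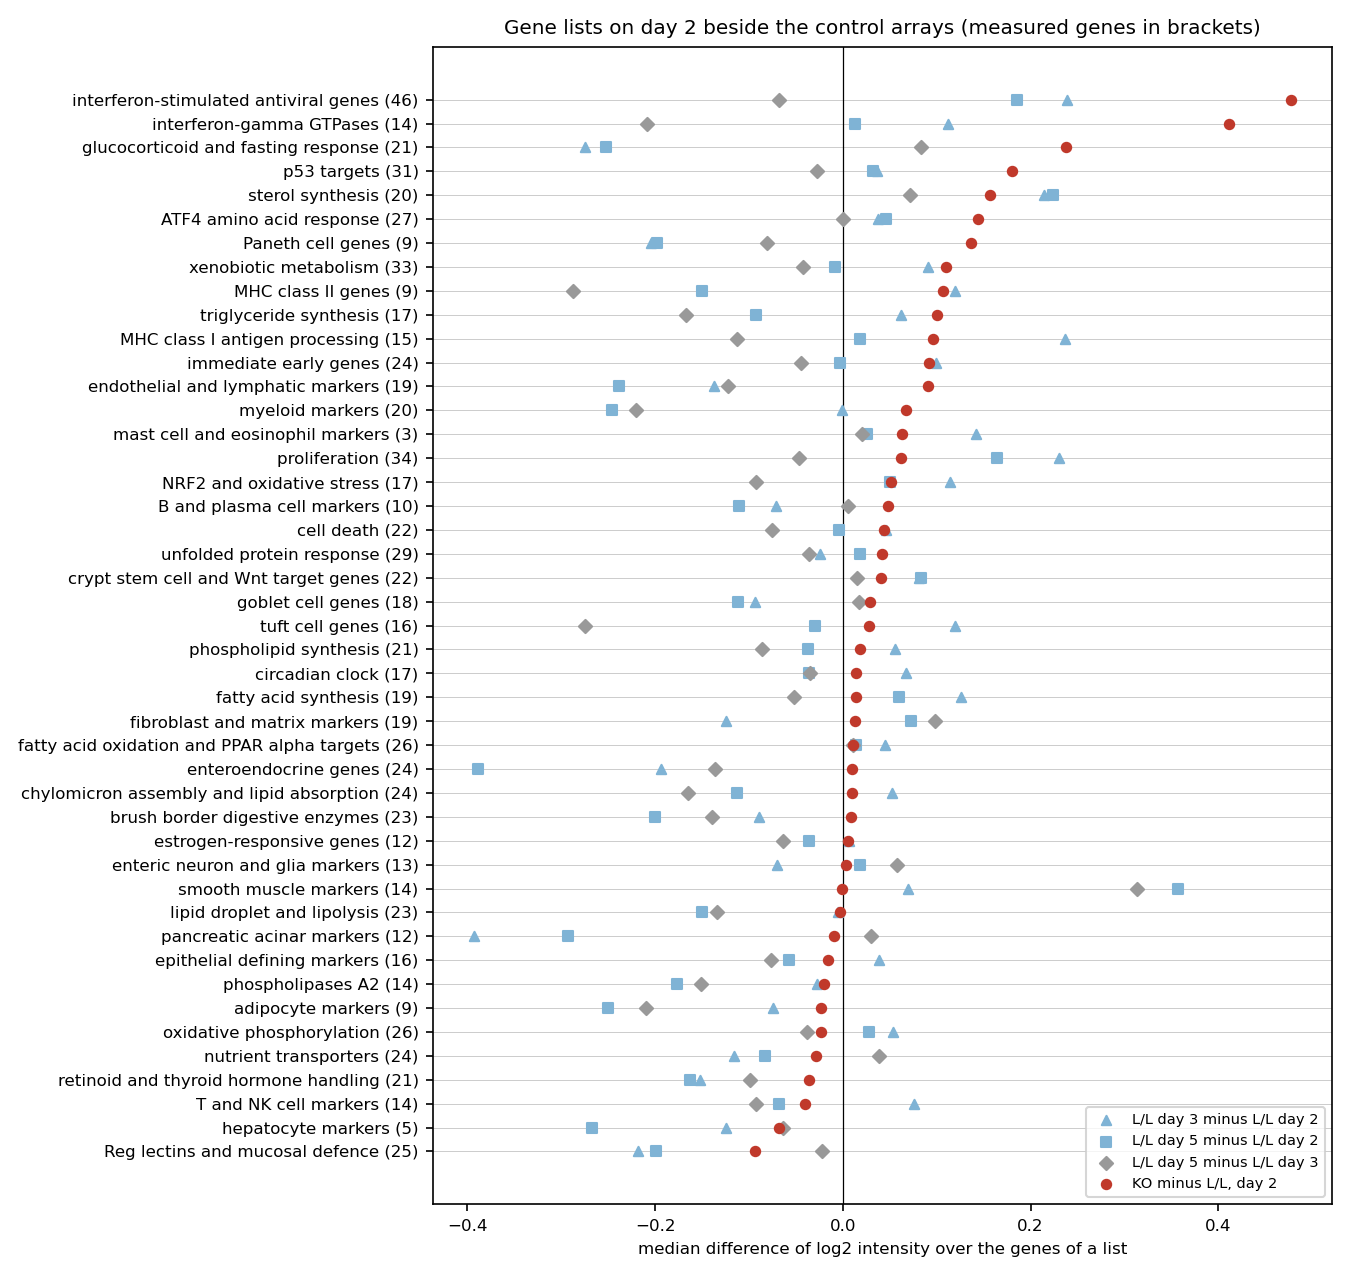
Median difference of log2 intensity (horizontal axis) over the measured genes of each list (number in brackets) for KO minus L/L on day 2 (red circles) and for the 3 differences between L/L arrays (blue and grey). Of the 45 lists drawn, which leave out the sex-linked, erythroid and recombinase readout genes, the antiviral (0.48) and interferon-gamma GTPase (0.41) lists lie above 0.3 on day 2, and for sterol synthesis (0.16) and class I processing (0.10), among others, an L/L difference is larger.

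Remaining lists stayed close to 0 on day 2, when 0.537% of all genes were past 1.5-fold. Immediate early genes had a median of 0.09, with Egr1 as the member past 1.5-fold. Xenobiotic metabolism had 0.11, with Gsta2 and Ephx1 past 1.5-fold and Cyp2c29, a cytochrome P450, at 0.51. Stem cell genes had 0.04, Cd44, a hyaluronan receptor of the crypt, being highest at 0.51, and brush border enzymes 0.01 with Akp3, an intestinal alkaline phosphatase, lowest at -0.36. The cell death list had 0.04, its highest member Gsdmc2, a gasdermin, at 276 in L/L and 402 in KO. In the circadian clock list (median 0.01) Dbp and Nr1d1, whose transcripts cycle over the day, were lowest at -0.48 and -0.36 and Npas2, which peaks at another phase, highest at 0.34. NRF2 targets had 0.05, nutrient transporters -0.03, retinoid and thyroid hormone handling -0.04, and phospholipases A2 -0.02.

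Markers of other cell types were measured beside these groups. Endothelial markers were the most uniform, with 18 of 19 above 0, against 55.5% of all genes. The median was 0.09, led by Robo4 (66 in L/L, 87.1 in KO) and the lymphatic marker Lyve1 (204 and 250). Their summed intensity was 3067 for L/L and 3342 for KO, and 2663 in the lowest L/L pool, and KO exceeded all L/L pools in 16 of the 19, against 21.2% of all genes. Myeloid markers (20 measured) had a median of 0.07, with a summed intensity of 5001 in L/L and 5300 in KO, against 4010 in the lowest L/L pool. T and NK cell markers (14 of 22 measured, median -0.04) had sums of 2463 and 2420. No list of immune or stromal markers held a gene past 1.5-fold, which 0.537% of all genes passed. Pancreatic acinar markers (12 of 21, median -0.01) summed to 37995 and 35111, adipocyte markers (9 of 12, median -0.02) to 4591 and 4722. Medians were 0.05 for B and plasma cells, 0.06 for mast cells and eosinophils, 0.01 for fibroblasts, 0.00 for smooth muscle and for enteric neurons and glia, and -0.07 for hepatocytes; the single measured erythroid gene, Klf1, was at -0.27. Intensities are never 0 in this table, so none of these markers was listed at 0. Their part in the interferon and p53 differences was not tested.

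Transcripts of the sex chromosomes also differed between the day 2 pools. Xist, which silences an X chromosome in females, was 2433 in L/L and 1090 in KO, and 3126 and 3052 in the later L/L pools, and its other probe sets differed by -1.21 and -1.32. The Y-linked genes Eif2s3y (338 and 497), Kdm5d (131 and 181) and Uty (128 and 167) were each higher in the KO pool. The sex of the pooled mice is not given in the labels, and the part of sex composition in the other differences was not tested.

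Days 3 and 5 gave genotype differences from separate arrays, with which the day 2 genes could be compared. Of the 56 genes 1.5-fold higher on day 2, 49 were higher on both later days, against 34% of all genes, and 24 were 1.5-fold higher on both. On day 3, 29 of the 56 were 1.5-fold higher, against 1.1% of all genes, and on day 5, 35, against 5.19%. Of the 14 lower genes, 7 were lower on both later days, against 32.4% of all genes, and 2 were 1.5-fold lower on both (0.506% of all genes on day 3 and 3.1% on day 5), namely Fitm2 and Gt(ROSA)26Sor. The higher genes of day 2 were thus mostly higher later, and the lower genes were divided.

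The groups were followed over the later days, with no test of a difference between their courses. The antiviral list had medians of 0.48, 0.49 and 0.61 on days 2, 3 and 5, and of its 18 genes past 1.5-fold on day 2, 10 were past it on day 3, 16 on day 5, and 11 had their largest difference on day 2. Of all 46 genes, 26 had a larger difference on day 5 than on day 2, and 19 on day 3. The GTPase list had its largest median on day 2, with 0.41, 0.19 and 0.33; Igtp stood at 1.23, 0.67 and 0.33, and Irgm1 at 0.73, 0.02 and -0.02. The p53 list had 0.18, 0.39 and 0.59, with 26 of 31 genes further from L/L on the higher side on day 5 than on day 2. Psrc1 went from 0.87 to 2.29 and 2.82, and Ccng1 from 0.88 to 1.31 and 1.96. Gsdmc2, at 0.55 on day 2, was at -3.40 and -7.85 on days 3 and 5, when L/L stood at 1176 and 1303 and KO at 111 and 5.66.

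Tests were possible over all 6 arrays. With the 3 days as replicates of the genotype difference, limma called 3 genes higher (0.023% of 13042) and 0 lower at an adjusted p under 0.05, with 1603 at an unadjusted p under 0.05. The 3 were Esr1, Glipr1 and Ifit1, each already beyond 2-fold on day 2. For the other antiviral genes at 2-fold adjusted p lay between 0.125 (Ifit3) and 0.331 (Herc6), and for Ccng1 it was 0.331. The difference between day 2 and the mean of days 3 and 5 was called for 0 genes by limma, with 428 (3.28%) at an unadjusted p under 0.05, so no difference is shown here to be particular to day 2. The largest such contrasts among the day 2 genes were Defa31 (-6.15, SE 2.96), Pla2g4c (3.85, SE 0.42) and Pla2g2a (-2.60, SE 0.24), each with an adjusted p of 1 in limma. As a linear change with day, limma called 160 genes (1.23%), of which 4 were past 1.5-fold on day 2: Ccng1, Defa31, Tlr1 and Tnfrsf14.

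**Figure D4:**
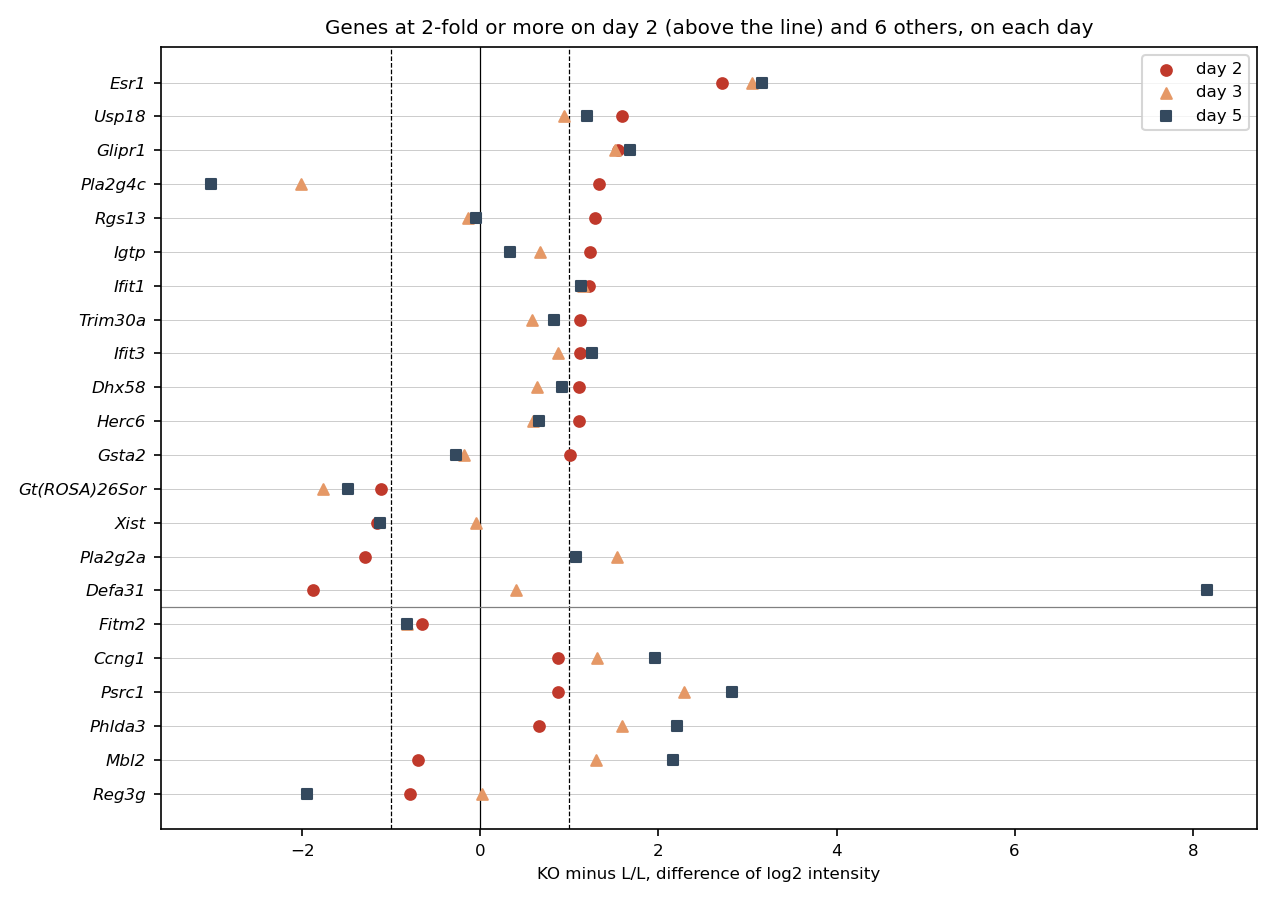
KO minus L/L difference of log2 intensity (horizontal axis) on day 2 (circles), day 3 (triangles) and day 5 (squares), 1 array pair for each day, for the 16 genes at 2-fold or more on day 2 and, under the line, 6 others; dashed lines mark 2-fold. Esr1, Glipr1 and the antiviral genes keep to the right on all days, the p53 targets Ccng1, Psrc1 and Phlda3 move further right, and Pla2g4c, Pla2g2a, Defa31, Mbl2, Rgs13 and Gsta2 change sides.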

How the data were processed

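The deposited table gives 1 processed intensity for each of 45101 probe sets on 6 Affymetrix 3' arrays, on a linear scale from 3.82 to 31146. Partek and RMA are named in the submitters' processing notes, with no version or role; for the genome build, "not given in the sources used here" applies. Quartiles were nearly equal between arrays (median intensity 57.8 to 59.8), and no further normalization was applied. The authors' intensities were taken to log2 with no offset. Symbols were updated through the gene ID (GRCm38.p6) for 34741 of 34945 probe sets with 1 gene; 932 with several genes and 9160 unlisted ones were left out. The brightest probe set of each gene was kept when its mean log2 lay above the 40th percentile (5.28). Day 2 has 1 pooled array for each genotype, so its differences carry no error. The p-values over the 6 arrays rest only on how the genotype difference varies over the 3 days. In that variation day, pool and array cannot be separated. Tests used limma 3.58.1 in R 4.3.3 (lmFit, eBayes, two-sided, Benjamini-Hochberg over 13042 genes): genotype beside day as a factor (2 residual degrees of freedom, prior 3.03), and day 2 against the later days (1, prior 4.17). The linear change with day had 1 residual degree of freedom and a prior of 4.76.

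Named genes were those at 2-fold on day 2, the 12 highest and lowest, up to 4 members of each list or those past 1.5-fold, the sex-linked, Fitm2 and recombinase readouts, and genes called by limma; unnamed gene models were passed over, and others named beside a list were chosen after their values were seen. The members and the 49 lists were chosen with earlier results of these data known. On simulated data with 200 of 13042 genes changed and spreads drawn from the fitted prior, the test over 3 days recovered 25.8%, 90.8% and 97.1% of genes changed by 0.5, 1 and 2 (log2), and 5 of its 148 calls were false. The test of day 2 against the later days recovered 0% at 1 and 72.6% at 2, and 6 of its 51 calls were false. The linear test recovered 0% of genes whose difference changed by 1 from day 2 to day 5 and 37.3% by 2. Of its 23 calls, 4 were false. Alternatives were the mean of all probe sets, leaving out probe sets of several transcripts, no filter or the 60th percentile, an offset of 32, median centring, cyclic loess, the mean of the 3 L/L arrays as control, dim intensities raised to the threshold, other eBayes settings, no day term and leaving out each day.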

Additional observations from a re-analysis of the deposited data

Results flagged for a closer look

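Among the genes at least 1.5-fold apart on day 2, the genotype difference of 4 changed with day in limma's linear test. Each call rests on 1 array pair for each of 3 days, and on simulated data 4 of the 23 calls of this test were false. Ccng1 changed by 0.36 per day on the log2 scale (SE 0.05, adjusted p = 0.0454), from 0.88 on day 2 to 1.96 on day 5. Defa31 changed by 3.42 per day (SE 0.17, adjusted p = 0.00876), from -1.87 to 8.16, with L/L at 35.3 on day 5. Tlr1 changed by 0.57 per day (SE 0.05, adjusted p = 0.0246), with 3 of its 6 intensities below the threshold of 38.9. Tnfrsf14 changed by -0.42 per day (SE 0.05, adjusted p = 0.0375), from 0.67 to -0.59. The contrast of day 2 with the mean of days 3 and 5 called 0 genes in limma, with 428 at an unadjusted p under 0.05.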

How the results depend on the processing

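The labels carry no replicate numbers that would tie samples across genotypes, so arrays were matched by day alone. Day is a term of the limma fit over the 3 days, which called 3 genes with that term and 3 without it. The day 2 counts depend on the fold: 12 genes higher and 4 lower at 2-fold were 56 and 14 at 1.5-fold. Over the alternative settings other than the fold, 8 to 15 genes were 2-fold higher and 3 to 6 lower. With the mean of the 3 L/L arrays as control 14 genes reached 2-fold, of which 5 were among the 16, Defa31 in the other direction. Usp18, Ifit1, Ifit3, Trim30a, Dhx58, Herc6 and Igtp fell short of 2-fold with that control. Of the genes named here past 1.5-fold 4 changed sign: Defa31 to 1.09, Mbl2 to 0.033, Pla2g2a to 0.45 and Pla2g4c to -0.20. Short of 1.5-fold on day 2, Bco1 (0.69), S100g (0.12), Akp3 (0.79), Hsd17b13 (0.31), Gsdmc2 (-0.90) and Cyp51 (-0.17) did so too, as did Gbp2b, Scarb1 and some genes near 0. The 3 genes called by limma over the 3 days were 1 with the mean of all probe sets, and 0 to 2 when a day was left out (1 without day 2, 0 without day 3, 2 without day 5). The 0 genes of day 2 against the later days were 160 as a linear change with day. The antiviral median (0.48) ran from 0.39 to 0.49. The GTPase median (0.41) was 0.61 without probe sets of several transcripts and 0.52 with the filter at the 60th percentile. The p53 median (0.18) was 0.11 with the mean of all probe sets, 0.19 without probe sets of several transcripts, 0.17 with no filter, 0.17 with an offset of 32, 0.19 with median centring, 0.15 with cyclic loess and 0.11 against the mean of the 3 L/L arrays. The cause of these shifts was not tested. Pools hide the spread between mice, and signal near the threshold limits Rgs13 and Tlr1.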
